A study of Mus musculus with 4 samples.

Results

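Neuropeptide precursors are the proteins from which neurons cut their peptide transmitters, and mRNA for 10 of them was followed in cultured mouse hippocampal neurons driven into synchronous firing. The 10 genes, Penk1, Pdyn, Npy, Sst, Tac1, Cck, Vip, Crh, Adcyap1 and Nts, were found by gene name among the 23453 genes of the deposited expression table, where each has 1 row. Penk1 is the older symbol of Penk. The AP bursting group held 2 libraries from neurons given 50 µM bicuculline on day 12 in vitro and collected 4 h later. Bicuculline blocks GABA-A receptors, and with inhibition lifted the network fires action potentials (AP) in bursts. The control group held 2 libraries from neurons given the solvent DMSO, which kept basal synaptic activity. All 4 libraries came from newborn C57BL/6NCrl hippocampus, cultured with B27 and rat serum, and the series text speaks of 2 experiments on separate preparations. RNA was taken from whole cultures, so more cells of a type and more RNA per cell cannot be told apart.

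A neuropeptide is made as a longer precursor, cut by prohormone convertases inside dense-core vesicles and released when a neuron fires hard, after which it acts on G-protein-coupled receptors. In the hippocampus Sst, Npy, Vip and Cck are typical of GABAergic interneurons, while enkephalin and dynorphin peptides are also made by granule cells. The somatostatin gene of the rat is a classic case of a gene switched on through a cAMP response element (CRE), the DNA site of the activity-driven transcription factor CREB.

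The deposited table gives 1 mean per group, in normalized reads, that is reads divided by a size factor for each library. From the digits of each mean the whole reads of its libraries were recovered, and all 10 precursors could be resolved. Each group has a deep library (size factor 1.27 after AP bursting and 1.33 in control) and a shallow one (0.661 and 0.914). The deep libraries of both groups resembled each other more than libraries of the same treatment did. Across 13648 genes, log2 levels correlated at r = 0.962 between the deep and 0.936 between the shallow libraries, against 0.873 between the AP bursting and 0.906 between the control libraries. Genes are not independent replicates, so these values describe the libraries. This likeness, and no label, is why each deep library was paired with the deep one of the other group, and each shallow with the shallow. Wherever a group has a pair of values, the deep library comes first and the shallow one second, and likewise for the folds of the pairs.

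AP bursting came with more mRNA of several precursors, led by Penk1 and Adcyap1, and 0 of the 10 were called lower in any fit. Penk1 and Adcyap1, 2 of the 10 precursors, passed in the authors' deposited table at the threshold of an adjusted p of 0.05 as higher, where 0.61% of all genes did, and 0 passed as lower, as for all genes (0%). All 10 deposited folds were above 1, with a median log2 fold of 0.77 against 0.01 over all genes. limma with the pair as a replicate block called 6 of 10 higher, namely Penk1, Adcyap1, Crh, Tac1, Nts and Sst, where it called 6.87% of 20226 genes tested higher. It called 0 of 10 lower, with 0 at an unadjusted p below 0.05, against 6.1% of all genes called lower. Of the 20226 genes, 4696 were at such an unadjusted p in either direction. The block leaves 1 degree of freedom and takes the spread from a trend over all genes. Without that trend it called 0 of all 20226 genes. Every call with the block given here, of precursors and of other genes, thus rests on that trend. The pairs were also chosen for their likeness in these same values, which can make the standard errors and p-values with the block too small. limma without the block called 0 of 10 in either direction. It had 4 of 10 higher at an unadjusted p below 0.05, where 668 of 20226 genes were at such a p in either direction. In 6 of 10 precursors both AP bursting libraries lay above both control libraries, as in 12.6% of all genes tested. In 9 of 10 the AP bursting library was the higher one in both pairs, as in 31.6% of all genes tested. With 2 libraries against 2, an exact permutation test of a single gene cannot go below p = 0.333, so no such test is given.

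**Figure D1:**
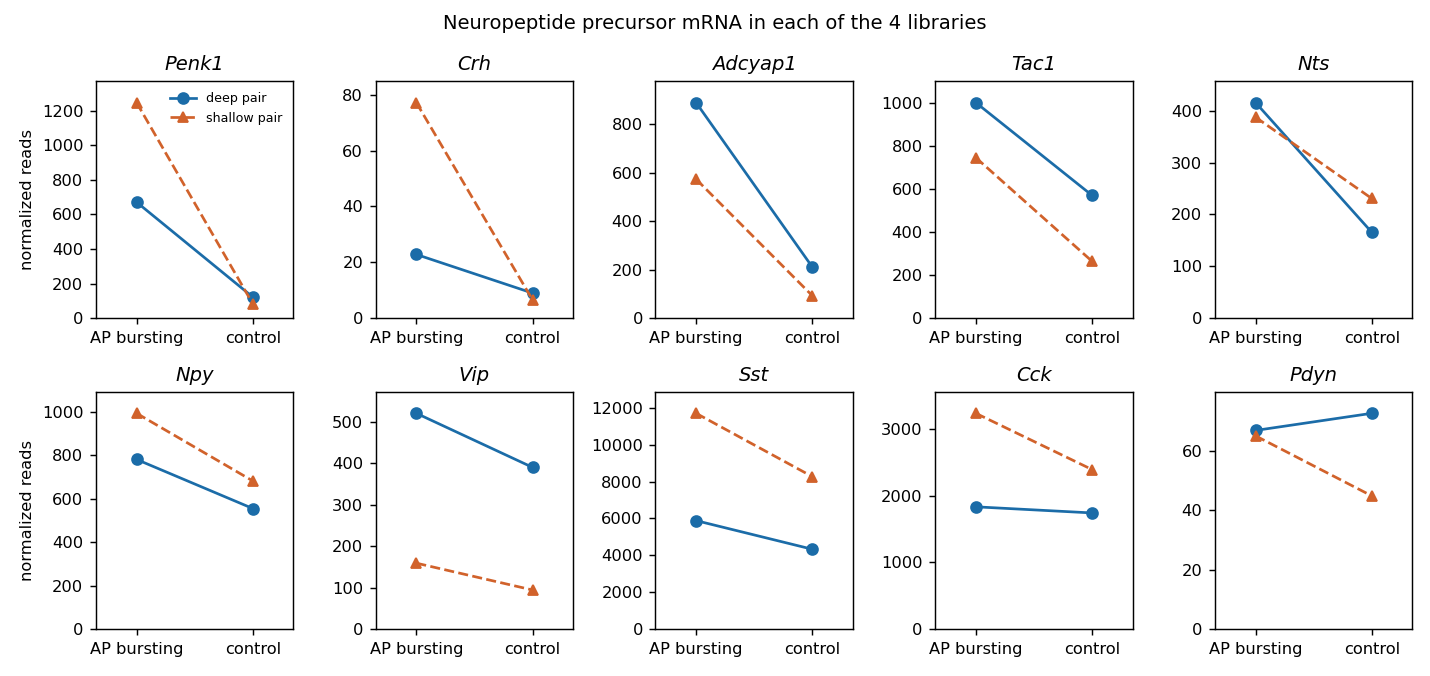
Normalized reads of each precursor (vertical axis, linear from 0, scaled to each gene) in the AP bursting and control libraries, with circles and solid lines for the deep pair and triangles and dashed lines for the shallow pair. Penk1 stands at 671 and 1246 after AP bursting and at 122 and 83.1 in control, while the lines of Sst, Vip and Cck lie one above the other, so that their groups overlap.

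Penk1 (ENSMUSG00000045573) encodes proenkephalin, the source of Met- and Leu-enkephalin, which act on opioid receptors. It had 671 and 1246 normalized reads after AP bursting, against 122 and 83.1 in control. Both values after AP bursting were far above both controls, and the shallow AP bursting library was the highest. The means were 958 ± 407 after AP bursting and 103 ± 27.6 in control (SD, n = 2 each), and the authors' deposited table gives 9.34-fold with an adjusted p of 0.00016. The pairs gave folds of 5.49 and 15.0. Of the 143 genes that rose in the authors' deposited table, 55 had a fold at least as large as that of Penk1, itself included. The GENCODE M21 annotation places A830012C17Rik, typed as a processed transcript, on the opposite strand over 233 exonic bases of Penk1, and the libraries do not keep strand, so reads there cannot be assigned to one of the pair. A830012C17Rik itself was not analysed here.

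Adcyap1 (ENSMUSG00000024256) encodes PACAP, a peptide that raises cAMP through its receptor and supports neuronal survival. Its levels were 890 and 574 normalized reads after AP bursting, against 211 and 93.0 in control. The groups did not overlap, and the deep library was the higher one in each of them. The means were 732 ± 223 after AP bursting and 152 ± 83.7 in control (SD, n = 2 each). The authors' deposited table gives 4.81-fold (adjusted p = 0.0329, near the threshold), and the pairs gave 4.21 and 6.17.

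Crh (ENSMUSG00000049796), the corticotropin-releasing hormone of the stress axis, is made by some hippocampal interneurons. It was read 29 and 51 times after AP bursting, against 12 and 6 times in control, the fewest reads in sum of the 10. In normalized reads these were 22.8 and 77.2 after AP bursting and 8.99 and 6.56 in control. Both AP bursting libraries exceeded both controls, but they differed from each other 3.38-fold. The ratio within the deep pair was 2.54, with an exact 95% interval of 1.26 to 5.46, and within the shallow pair 11.8, with an interval of 5.05 to 33.5, both covering counting error only. The authors' deposited table gives Crh 6.43-fold (adjusted p = 0.502), so the gene did not pass there. Of the 83 genes that matched or exceeded Crh in both fold and mean, itself included, 80 passed in the authors' deposited table. limma with the replicate block called Crh higher, with a log2 fold of 2.31 ± 0.42 (SE).

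Tac1 (ENSMUSG00000061762) encodes substance P and neurokinin A. It had 1002 and 746 normalized reads after AP bursting and 571 and 265 in control, without overlap. Nts (ENSMUSG00000019890), the neurotensin precursor, had 416 and 388 normalized reads after AP bursting and 166 and 231 in control, also without overlap. The authors' deposited table gives folds of 2.09 for Tac1 and 2.03 for Nts, each with an adjusted p of 1. Both were called higher by limma with the replicate block, with log2 folds of 1.15 ± 0.20 (SE) for Tac1 and 1.03 ± 0.23 (SE) for Nts. The pairs gave Tac1 folds of 1.75 and 2.82. Nts was the single precursor whose fold was larger in the deep pair, with 2.51 and 1.68.

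Sst, Npy and Vip, the peptides that name classes of cortical and hippocampal interneurons, showed smaller folds close to one another, at 1.40 for Sst, 1.43 for Npy and 1.40 for Vip in the authors' deposited table, each with an adjusted p of 1. Npy (ENSMUSG00000029819), the precursor of neuropeptide Y, had 782 and 995 normalized reads after AP bursting and 555 and 683 in control, so its groups did not overlap. Its folds of 1.41 and 1.46 were nearly equal between pairs, and limma with the replicate block gave an adjusted p of 0.0640, just short of the threshold.

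Sst (ENSMUSG00000004366), the somatostatin precursor, had 5884 and 11715 normalized reads after AP bursting and 4328 and 8275 in control. The shallow control library was above the deep AP bursting library, so the groups overlapped. The limma log2 fold of Sst was 0.47 with and without the block. Its SE was 0.15 with the block and 0.52 without it, so the call rests on the pairing. Within pairs the folds were 1.36 and 1.42. limma with the replicate block called it higher (log2 fold 0.47 ± 0.15, SE, adjusted p = 0.0199), but with scaling to total resolved reads Sst was no longer among the called precursors (adjusted p = 0.0942).

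Vip (ENSMUSG00000019772), the vasoactive intestinal peptide precursor, had 521 and 159 normalized reads after AP bursting and 390 and 94.1 in control. The pairs lay far apart and the groups overlapped. The pairs gave 1.33 and 1.69, and limma with the replicate block gave an adjusted p of 0.0892. Cck (ENSMUSG00000032532), the cholecystokinin precursor, had 1833 and 3236 normalized reads after AP bursting and 1741 and 2392 in control, with overlapping groups. Its pairs gave folds of 1.05 and 1.35, and its adjusted p with the block was 0.406.

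Pdyn (ENSMUSG00000027400), the precursor of dynorphins, which act on the kappa opioid receptor, gave no common direction. It had 66.9 and 65.1 normalized reads after AP bursting and 72.7 and 44.8 in control. The pairs gave 0.920 and 1.45, with exact 95% intervals of 0.680 to 1.24 and 0.924 to 2.28 for counting error, both of which include 1. Penk1 and Pdyn, both opioid precursors, thus had folds of 9.34 and 1.12 in the authors' deposited table. Their difference was not tested.

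**Figure D2:**
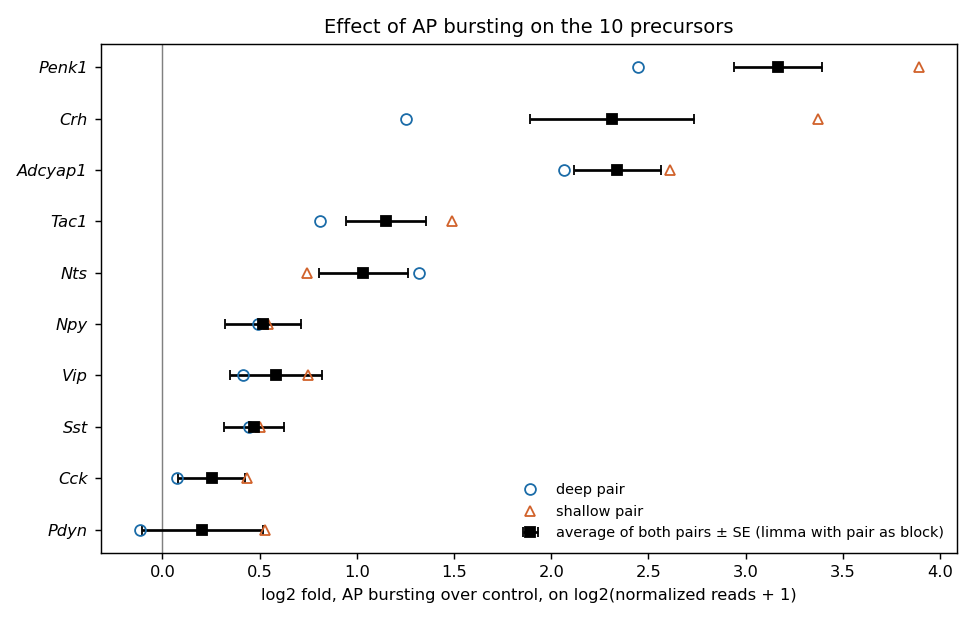
Log2 fold of AP bursting over control on log2(normalized reads + 1) for each precursor (horizontal axis), in the deep pair (circles), in the shallow pair (triangles) and as the average of both pairs with its SE from limma with the replicate block (squares, bars). Penk1 lies at 2.45 and 3.89, Adcyap1 at 2.07 and 2.61 and Crh at 1.25 and 3.37, while the deep pair of Pdyn lies at -0.12.

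The libraries of 1 group differed from each other in a way that depended on the precursor. Sst was 1.99 times as high in the shallow as in the deep AP bursting library, and 1.91 times in control. Vip went the other way, with a ratio of shallow to deep of 0.305 after AP bursting and 0.241 in control. For Sst, Vip and Cck the difference between pairs was thus larger than the difference between treatments. Penk1 and Crh had ratios above 1 after AP bursting (1.86 and 3.38) and below 1 in control (0.681 and 0.730). In 9 of 10 precursors the shallow pair had the larger fold, and the share of all genes is not given here. Other gene lists described below also had larger median log2 folds in the shallow pair. Deep and shallow medians were 0.21 and 0.59 for further precursors and 0.18 and 0.70 for GABAergic interneuron markers. Microglia markers (1.01 and 0.22) and all genes tested (0.01 and -0.02) went the other way. Whether the effect differed between pairs was not tested, because each pair holds 1 library per group.

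**Figure D3:**
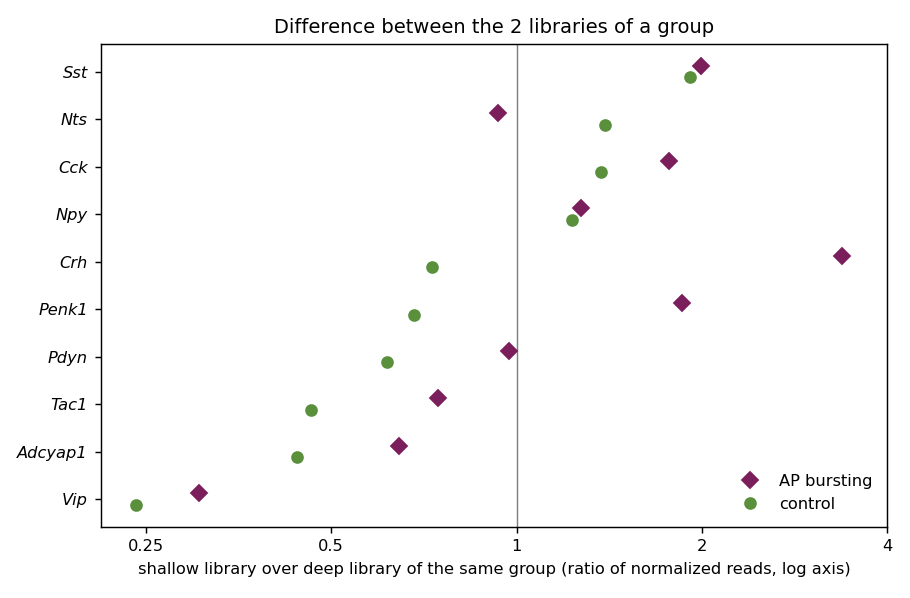
Ratio of the shallow to the deep library of the same group for each precursor (horizontal log axis), with diamonds for AP bursting and circles for control. Sst lies near 2 in both groups (1.99 and 1.91) and Vip near the low end in both (0.305 and 0.241), while Crh lies at 3.38 after AP bursting and 0.730 in control.

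Per kilobase of exon, using exon lengths of GENCODE M21, Sst was the most abundant of the 10 precursor mRNAs in every library, at 8161 and 16248 normalized reads per kb after AP bursting and 6003 and 11478 in control. Sst made up 65.7% and 73.7% of the summed per-kb level of the 10 after AP bursting, and 67.5% and 77.0% in control. Over all 4 libraries the mean per-kb level was 10472 for Sst, 1763 for Cck and 1331 for Npy, followed by Penk1 at 325, Nts at 240, Tac1 at 190, Adcyap1 at 117, Vip at 85.6, Crh at 21.9 and Pdyn at 21.6. The range over libraries did not overlap between Sst and Cck or between Npy and Penk1, and every other pair of neighbours in this order overlapped. Penk1 changed its place with treatment. After AP bursting it stood at 410 and 762 per kb, above Nts at 333 and 311, whereas in control it stood at 74.8 and 50.9, below Nts at 133 and 185.

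Stretches before the transcription starts are shown to set the precursors' CRE-like letters beside their folds. RefSeq windows on GRCm38.p6 were matched for 8 of the 10 genes. The set of windows used held no entry for Penk1 (sought as Penk) or Crh. These are the precursors with the highest folds in the authors' deposited table, at 9.34 and 6.43, so the comparison lacks them. The 250 bases before each start were searched on both strands for the CRE core TGACG, the CRE palindrome TGACGTCA, which contains the core, and the AP-1 site TGANTCA. The core was present in 6 of the 8 genes, Adcyap1, Tac1, Nts, Sst, Vip and Cck, and in 19.8% of 27025 genes in the same table. The palindrome was present in Sst alone, and in 1.77% of all genes. The AP-1 letters were present in Nts alone, and in 7.82% of all genes. Windows of 30 bases follow in the direction of the gene, with the match in capitals; CGTCA is the core on the other strand.
Adcyap1 (chr17:93198914-93198943, plus strand, match 91 to 87 bases before the start): ggactaggatgcTGACGtcttttactgata
Tac1 (chr6:7554852-7554881, plus strand, 197 to 193 bases before): tccctaaaattgCGTCAtttcgaacacaat
Tac1 (chr6:7555006-7555035, plus strand, 43 to 39 bases before): gctctacaggctCGTCAcgcctgagataaa
Nts (chr10:102490567-102490596, minus strand, 166 to 162 bases before): attagggaagatCGTCActttccatcaagg
Nts, AP-1 letters (chr10:102490607-102490636, minus strand, 207 to 201 bases before): aactctttctgTGAGTCAgaaatcctgagc
Vip (chr10:5639127-5639156, plus strand, 79 to 75 bases before): ggatcactactgTGACGtctttcggggagc
Sst (chr16:23890874-23890903, minus strand, palindrome 48 to 41 bases before): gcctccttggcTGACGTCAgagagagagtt
Cck (chr9:121495724-121495753, minus strand, 47 to 43 bases before): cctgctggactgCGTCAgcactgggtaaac
The Adcyap1 site is the same one for both of that gene's listed starts, and lies 242 to 238 bases before the other start. In the authors' deposited table the folds of the 6 genes with the core were 4.81 for Adcyap1, 2.09 for Tac1, 2.03 for Nts, 1.40 for Sst, 1.40 for Vip and 1.23 for Cck. Npy and Pdyn held none of the 3 motifs in these windows, with folds of 1.43 and 1.12 in the authors' deposited table. Whether the letters go with the fold was not tested. A match is a string of letters and not a measured binding site.

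Receptors for the peptides moved in both directions. Of 25 receptor genes present, 1 passed as higher and 0 as lower in the authors' deposited table. This was Sstr1, a somatostatin receptor, at 4.43-fold (adjusted p = 0.0469). Sstr1 had 3490 and 9898 normalized reads after AP bursting and 1278 and 1741 in control, so its groups did not overlap. limma with the replicate block called 4 of 23 tested receptors higher and 4 lower, against 6.87% and 6.1% of all genes. The median log2 fold of the 23 was 0.07, against -0.02 over all genes tested, and with scaling to total resolved reads it was -0.07, against -0.16 over all genes.

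Other somatostatin receptors did not pass in the authors' deposited table, with an adjusted p of 1 for each of Sstr2, Sstr3 and Sstr4, and were called in both directions with the block. Sstr2 had 2136 and 1396 normalized reads after AP bursting and 811 and 610 in control, a log2 fold of 1.29 ± 0.19 (SE, limma with the replicate block). Sstr3, found on neuronal cilia, had 609 and 176 after AP bursting and 662 and 581 in control, a log2 fold of -0.92 ± 0.21 (SE), resting on the shallow pair, since the pairs gave folds of 0.920 and 0.302. Sstr4 had 161 and 271 after AP bursting and 358 and 409 in control, a log2 fold of -0.87 ± 0.23 (SE). The block fit called Sstr1 and Sstr2 higher and Sstr3 and Sstr4 lower, also with scaling to total resolved reads.

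Tacr3, the receptor that prefers neurokinin B over the Tac1 peptides, had 2383 and 1240 normalized reads after AP bursting and 707 and 382 in control. Its fold was nearly equal in both pairs (3.37 and 3.25), and the authors' deposited table gives 3.33 with an adjusted p of 0.215. Npy2r, a receptor for neuropeptide Y that often sits on nerve endings, had 118 and 66.6 after AP bursting and 250 and 163 in control, and was called lower with the block (log2 fold -1.18 ± 0.26, SE). The other calls with the block, named after their values were seen, were Cckbr, the brain cholecystokinin receptor, higher at 275 and 306 normalized reads after AP bursting against 150 and 151 in control, and Npy6r, lower on 1 read in all after AP bursting and 13 in control. A main receptor for the peptides of Penk1 and 1 for that of Adcyap1, both named outside the naming rule given below, were not called. Oprd1, the delta opioid receptor bound by enkephalins, had 282 and 156 after AP bursting and 315 and 173 in control (log2 fold -0.15 ± 0.24, SE). Adcyap1r1, the PACAP receptor, had 3728 and 3768 after AP bursting and 4424 and 4307 in control (log2 fold -0.22 ± 0.16, SE). Both AP bursting libraries of Adcyap1r1 thus lay below both control libraries.

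**Figure D4:**
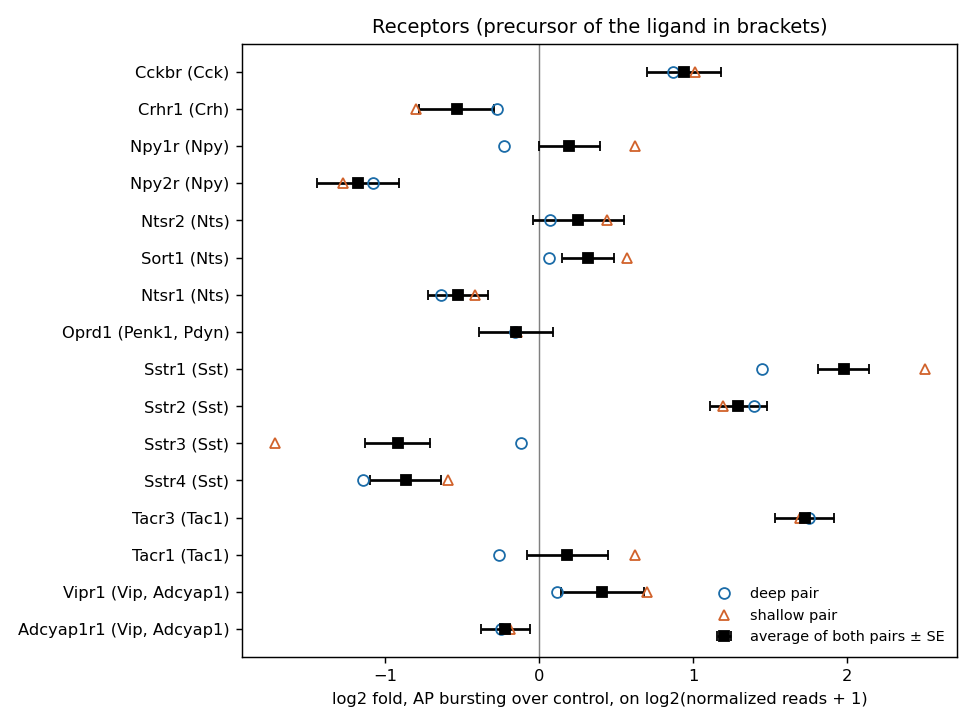
Log2 fold of AP bursting over control on log2(normalized reads + 1) for the 16 receptors averaging 50 normalized reads or more, in the deep pair (circles), the shallow pair (triangles) and as the average of both with its SE (squares, bars). Sstr1, Tacr3 and Sstr2 lie right of 0 at 1.98, 1.72 and 1.29, and Npy2r, Sstr3 and Sstr4 left of it at -1.18, -0.92 and -0.87.

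Among 21 genes that cut, finish, bind or clear neuropeptides, 1 passed as higher and 0 as lower in the authors' deposited table, Pcsk1, the prohormone convertase that makes the first cuts in many precursors (fold 7.14, adjusted p = 0.000163). Pcsk1 had 8183 and 3659 normalized reads after AP bursting and 1132 and 526 in control. limma with the replicate block called 5 of 20 tested higher and 0 lower, against 6.87% and 6.1% of all genes. Pam, which amidates the ends of peptides, had 16955 and 10876 after AP bursting and 6130 and 3435 in control, and Crhbp, a secreted protein that binds the Crh peptide, had 1958 and 1535 after AP bursting and 1181 and 562 in control. Pam and Crhbp were called higher with the block, with log2 folds of 1.56 ± 0.15 and 1.09 ± 0.19 (SE). The second convertase, Pcsk2, had 3134 and 2613 after AP bursting and 3145 and 3126 in control and was not called. Nor were the peptidases Thop1 and Ece1, with log2 folds of -0.21 ± 0.19 and -0.26 ± 0.21 (SE).

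Of 40 further neuropeptide and peptide hormone precursors in the table, 0 passed in the authors' deposited table. limma with the replicate block called 7 of 33 tested higher and 0 lower, against 6.87% and 6.1% of all genes. Their median log2 fold was 0.40, against -0.02 over all genes tested. Of the 40, 9 averaged 50 normalized reads or more, and 7 averaged under 1 and were not tested by limma. The median thus comes mostly from genes with few reads. The calls do not, since of the genes called higher only Adm, named after its values were seen, averaged under 50. Cartpt, the precursor of the CART peptides, had 26.8 and 160 normalized reads after AP bursting and 2.25 and 28.4 in control, so that the shallow control library lay above the deep AP bursting library. Prok2, a secreted clock-linked peptide, had 107 and 135 after AP bursting and 39.7 and 18.6 in control, and Nppc, the C-type natriuretic peptide precursor, had 196 and 328 after AP bursting and 82.4 and 83.1 in control. The block fit called Cartpt, Prok2 and Nppc higher, with log2 folds of 2.78 ± 0.39, 2.10 ± 0.32 and 1.60 ± 0.26 (SE). The lowest folds among those averaging 50 or more were 1.08 for Calca, 1.09 for Grp and 1.73 for Apln in the authors' deposited table, with none called by the block fit.

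Markers of GABAergic interneurons, the cells typical of Sst, Npy and Vip, ranged widely. Of 17 such markers 0 passed in the authors' deposited table, where the median fold was 1.35 and the range 0.874 for Pvalb, a marker of fast-spiking interneurons, to 1.81 for Dlx6, a factor of interneuron development. Gad1 and Gad2, which make GABA, had folds of 1.40 and 1.43 there, and Slc32a1, the vesicular GABA transporter, 1.57. Lhx6, a factor that marks the lineage of Sst interneurons, had 2070 and 2148 normalized reads after AP bursting and 1999 and 1808 in control, a log2 fold of 0.15 ± 0.17 (SE). limma with the replicate block called 6 of 15 tested markers higher and 0 lower, against 6.87% and 6.1% of all genes. With scaling to total resolved reads it called 2 of 15 higher and 0 lower, against 995 higher and 1930 lower of 20226 genes, and Lhx6 had a log2 fold of 0.00. Their summed level was 37175 and 44147 after AP bursting and 31508 and 28556 in control, and 0 of the markers were at 0 in every library. The part of these markers in the results for Sst, Npy and Vip was not tested.

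Markers of glia were present in these cultures. The summed level of 9 astrocyte markers was 16285 and 25800 normalized reads after AP bursting and 14989 and 19458 in control. For 10 oligodendrocyte lineage markers it was 3683 and 7510 after AP bursting and 3716 and 5424 in control, for 8 microglia markers 76.4 and 95.4 after AP bursting and 48.7 and 90.8 in control, and for 6 vascular markers 348 and 475 after AP bursting and 320 and 425 in control. With the block 0 of these 4 lists' genes were called in either direction, against 6.87% of all genes called higher and 6.1% lower. Of the 8 microglia markers 0 averaged 50 normalized reads or more, and of the 6 vascular markers 2 did. Of 12 excitatory neuron markers 1 passed as higher and 0 as lower in the authors' deposited table, Fezf2, a factor of deep-layer projection neurons (6.12-fold, adjusted p = 0.00194), named after its values were seen. The block fit called 5 of 10 tested higher and 2 lower, against 6.87% and 6.1% of all genes, and with scaling to total resolved reads 4 higher and 2 lower. The 2 called lower, also named after their values were seen, were Neurod6 and Bcl11b. The pairs gave folds of 0.474 and 0.528 for Neurod6 and 0.491 and 0.940 for Bcl11b. Of the 10, 4 were higher after AP bursting in both pairs and 4 were lower in both. The summed level of the 10 was 19122 and 24605 after AP bursting and 16175 and 13884 in control.

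The genes whose pattern over the 4 libraries was nearest to that of Penk1, among the 13648 genes averaging 50 normalized reads or more, were Ism1, which encodes a secreted protein, Rasl11a, a Ras-like GTPase, and Dusp4, a MAP kinase phosphatase. Their Euclidean distances on centred log2 values were 0.133, 0.180 and 0.343. Ism1 had 623 and 1022 normalized reads after AP bursting and 103 and 71.1 in control. Nearest to Adcyap1 were Spry4, an inhibitor of receptor tyrosine kinase signalling, Gpr85, an orphan receptor, and Kif18a, a mitotic kinesin, at distances of 0.266, 0.317 and 0.388. Spry4 had 2609 and 1953 after AP bursting and 779 and 281 in control.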

How the data were processed

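RNA was measured in 4 non-stranded libraries, 2 per group. The submitters' processing notes list the build mm9 with DESeq 1.12.0, TopHat 1.2.0 and SAMtools 0.1.19. No source used here names the counting tool or the annotation. The authors deposited, per the file headers, a mean signal per group (counts divided by size factors), a ratio (fold, AP bursting over control) and an adjusted p-value. No replicate number can be tied to a library.

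Whole read counts of both libraries were sought for each mean, with a tolerance of 1.05 times the rounding of 10 digits, and kept where a single solution existed. This resolved 23335 AP bursting values (99.5%) and 23171 control values (98.8%). Resolved genes sum to 25439100 (deep) and 13137300 (shallow) reads after AP bursting and to 20954700 and 13337800 in control. Pairs of libraries were inferred from the difference between deep and shallow libraries, which correlated at r = 0.878 between groups over 13648 genes. Whether a pair is 1 preparation is not stated.

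The main test was the authors' adjusted p (threshold 0.05). limma 3.58.1 in R 4.3.3, with a trend, was fitted across all 20226 genes with a mean of at least 1, on log2(value + 1), with Benjamini-Hochberg adjustment and two-sided tests, with and without the pair as a replicate block. The block leaves 1 residual degree of freedom, so its p-values rest on the variance trend across genes and measure only the spread between these libraries. The pseudocount makes folds of low genes too small. The recovery of reads and the block fit were each run on simulated data. The simulation for the block fit took the pairing as true and gave every gene the same relative spread. It therefore cannot test the choice of pairs or the reliance on the trend. Exact 95% intervals of read ratios (Clopper-Pearson) cover counting error only. Members, lists and tests were chosen with earlier results of these data known. Of the lists of receptors, processing and clearance genes and other precursors the text names genes past the authors' threshold and, among those with a mean of at least 50, the 3 highest and 3 lowest folds; it names the 3 genes nearest in pattern to each member past that threshold.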

Additional observations from a re-analysis of the deposited data

How the results depend on the processing

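Of 10 precursors 2 passed as higher in the authors' deposited table, also at a threshold of 0.1. limma without a block called 0, and with the replicate block it called 6, also with a pseudocount of 0.5 or 5 or with no filter. With the block it called 5 with a mean of at least 50, where Crh is not tested, and 5 with scaling to total resolved reads, where Sst was lost. That scaling put the median over all genes at -0.16 (log2), and the calls over all genes at 995 higher and 1930 lower, against 1390 and 1234 with the block alone, 2 and 0 without it and 143 and 0 in the authors' deposited table. With the block and no variance trend it called 0, with 5 at an unadjusted p below 0.05, as were 3268 of 20226 genes in either direction. Leaving out 1 library at a time, without a block, leaves a single library in 1 group, which is then assumed to vary like the other group. Of these fits only the log2 folds are given. No setting run called a precursor lower.

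The log2 fold turned negative for Pdyn without the shallow control library (-0.14) and in the deep pair (-0.12). It also did so for Sst and Cck without the shallow AP bursting library (-0.024 and -0.16). For Vip it did so without the deep AP bursting (-0.27) or the shallow control library (-0.44). A fit without 1 library sets a single deep or shallow library against both of the other group, so the difference between pairs enters it. Within each pair the log2 folds of Sst, Cck and Vip were positive. The highest values on leaving out 1 library were 0.55 for Pdyn, 0.97 for Sst, 0.67 for Cck and 1.60 for Vip. The other members kept a positive log2 fold, over 2.45 to 3.89 for Penk1, 1.75 to 2.93 for Adcyap1, 1.25 to 3.37 for Crh, 0.60 to 1.70 for Tac1, 0.75 to 1.32 for Nts and 0.34 to 0.69 for Npy. Depth limits Crh and Pdyn most, with 6 to 97 reads a library.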
